A study of Mus musculus with 7 samples.

Results

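Genes of the TGFβ and BMP signaling families were compared in cancer-associated fibroblasts (CAFs) taken from mouse pancreatic tumors with and without silencing of Brca2 in the cancer cells. The members were chosen by gene symbol: every symbol of the count table that begins with Tgfb, Bmp, Gdf, Inhb, Acvr, Smad, Ltbp or Grem, together with Chrd, Nog, Fst, Fstl1, Fstl3, Nbl1 and Eng. The rule used no measured value, but it was chosen with earlier results of these data known. It found 51 of the 12771 genes in the table. Of these, 46 encode ligands, receptors, SMADs, latent TGFβ binding proteins or antagonists. The other 5 (Tgfbi, Bmp1, Bmp2k, Tgfbrap1 and Tgfb1i1) share the letters of the name without being a ligand, receptor or antagonist.

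Tumors were grown in the pancreas of male C57BL/6 J mice that were 8 weeks old when injected with KPC cells, a mouse pancreatic cancer line. The cells had been infected with a lentivirus carrying either a hairpin that silences Brca2 (shBrca2) or one with no target (shControl), and selected with puromycin. The hairpin was thus in the injected cancer cells, which came from 1 line, and not in the fibroblasts of the host. Between 2 and 3 weeks after injection, live podoplanin-positive cells lacking CD45, CD31 and EpCAM were sorted, and the 3' ends of their poly(A) RNA were sequenced by a variant of MARS-seq. The data are counts per gene from 3 shControl and 4 shBrca2 libraries, each from 1 mouse, with total counts between 1898679 and 5990579.

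TGFβ is secreted in a latent complex, in which its propeptide holds the ligand and a latent TGFβ binding protein ties it to the matrix. Once released, it brings together the type II receptor TGFBR2 and a type I receptor, and the type I receptor phosphorylates SMAD2 and SMAD3. Activins signal through the same SMADs with other receptors, while BMPs and some GDFs signal through SMAD1, SMAD5 and SMAD9. SMAD4 joins both branches, SMAD6 and SMAD7 inhibit them, and secreted antagonists such as gremlin, noggin and follistatin bind ligands outside the cell. In pancreatic cancer TGFβ is known for driving fibroblasts toward the myofibroblastic state.

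Of the 51 members, 17 changed in shBrca2 CAFs: 5 were higher and 12 were lower. A gene was called when its DESeq2 adjusted p, taken over all genes, was under 0.1, the log2 fold change exceeded 0.5 in either direction and the mean normalized count exceeded 5. The share of members called was 33.3%, against a background of 9.04% of all tested genes (3.77% higher and 5.27% lower). With edgeR 15 of the 51 members were called, where the background was 8.75% of all genes. The members called higher were Inhba, Tgfbi, Tgfbr3l, Tgfb1 and Smad3. Those called lower were Gdf15, Bmp6, Ltbp1, Eng, Inhbb, Gdf9, Acvrl1, Tgfbr3, Tgfbr2, Ltbp4, Ltbp2 and Nbl1. The median log2 fold change of the 51 members was -0.13, and of all genes 0.01. Their median absolute log2 fold change was 0.43, against 0.28 over all genes. Normalized counts did not overlap between the groups in 17 of the 51 members, with shBrca2 higher in 4 and lower in 13. The background over all genes was 7.78% and 9.29%, so the share of members with shBrca2 higher was near that of all genes. Tgfb1 and Nbl1 were called with overlapping groups, and Fstl1 and Smad9 were apart without a call. A total of 48 members had a mean normalized count over 5. Bmp5, Bmp7 and Smad9 had less and could not be called.

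**Figure D1:**
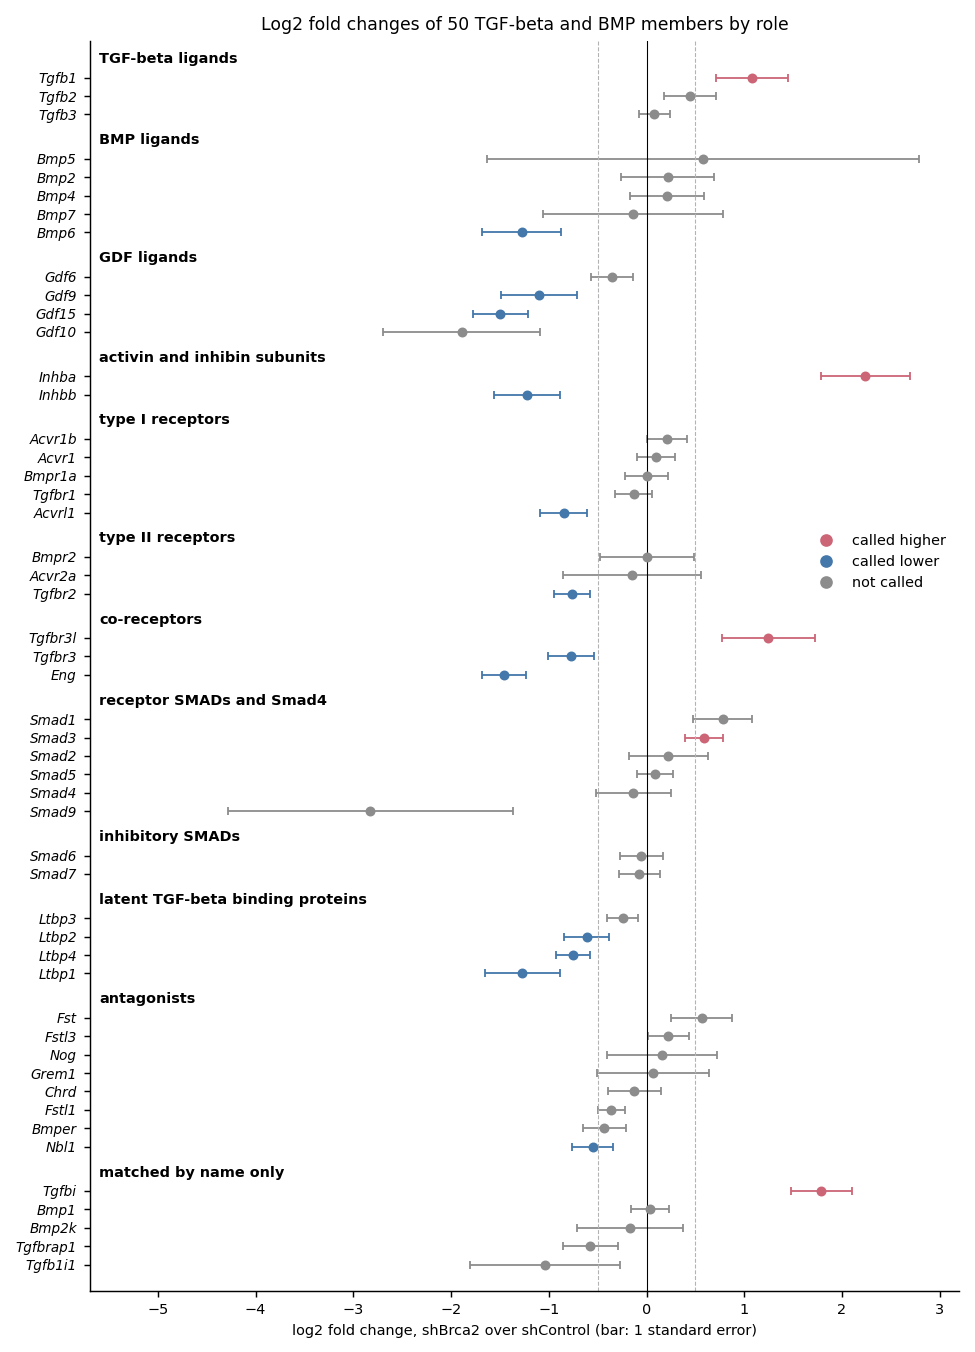
Log2 fold change of 50 of the 51 members, shBrca2 over shControl, grouped by role, with bars of 1 standard error. Dashed lines mark the threshold of 0.5 in either direction, and called members are colored. All 4 latent TGFβ binding proteins lie left of 0, as do Eng and Tgfbr3, while Inhba and Tgfbi lie farthest to the right.

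The cells behind these values were checked by marker lists, each summed per library. The summed normalized count of 9 fibroblast markers was 133530 to 148022 in shControl and 99629 to 122083 in shBrca2 libraries. Dcn, Lum, Dpt and Pi16 of that list were called lower. Its other markers Pdgfra, Col1a1, Col1a2, Pdpn and Col3a1 had log2 fold changes of 0.01, -0.04, -0.09, -0.25 and -0.44 and were not called. Lists of 8 macrophage, 9 pericyte, 7 endothelial and 13 mesothelial markers were summed in the same way. The macrophage sum was 273 to 312 in shControl and 413 to 446 in shBrca2, with Csf1r and C1qa called higher. Most of that difference was in Csf1r, with means of 112.5 and 248 normalized counts, while Cd68 (98.6 and 79.8), Lyz2 (51.4 and 41.9) and Fcer1g (8.88 and 8.71) had lower means in shBrca2 and were not called. The pericyte sum was 876 to 1804 and 1843 to 2382, with 4 of 9 markers (Notch3, Des, Ndufa4l2 and Cox4i2) called higher. Des and Ndufa4l2 had the highest mean counts of that list, 768 and 542. The other 5 pericyte markers were not called, and Kcnj8 and Abcc9 among them had log2 fold changes of -0.13 and -0.32. The endothelial sum overlapped (132 to 252 and 219 to 307, with Flt1 called higher), and so did the mesothelial sum (1757 to 5387 and 4674 to 5416). The mesothelial overlap came from shControl replicate 4 alone, as replicates 1 and 2 were at 1757 and 2591. In that list 4 of 13 (Krt8, Krt18, Krt19 and Ezr) were called higher. Log2 fold changes were positive in 10 of the 13 and negative in 3 (Upk3b, Lrrn4 and Rspo1). The endothelial sum was mostly Kdr, Esam and Flt1, and 3 less abundant markers of that list were lower in shBrca2 with no overlap. Pecam1, the gene of the CD31 used to exclude endothelial cells, had 5.13, 17.7 and 1.95 normalized counts in shControl and 1.72, 0.583, 0 and 0 in the shBrca2 libraries. On the log2 scale this was -3.60 by DESeq2, at an adjusted p of 0.031, but the mean count of 3.87 was too low for a call. Tek and Vwf were at -1.55 and -1.11 on the same scale and were not called (DESeq2 adjusted p = 0.12 and 0.52). The epithelial list of 7 genes had sums of 701 to 3010 and 779 to 1796, with Krt7 and Elf3 called higher. Krt20, Cldn7 and Elf3 were at 0 in at least 1 library. That sum was mostly Lcn2, with means of 1497 and 820 normalized counts (log2 fold change -0.87, not called). The other 6 genes had positive log2 fold changes. Cdh1, Krt7 and Elf3 were higher in shBrca2 with no overlap, though Cdh1 and Elf3 had mean counts of only 8.26 and 6.13. Jchain and Mzb1, the 2 lymphoid markers measured, were called lower, as were 3 of 7 acinar markers, while the acinar gene Cela1 was called higher. Called or not, 6 of the 7 acinar markers were lower in shBrca2 with no overlap. In bulk RNA, fewer cells of a type and less RNA per cell cannot be told apart, and the part of these shifts in the results that follow was not tested except where a value is given.

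**Figure D2:**
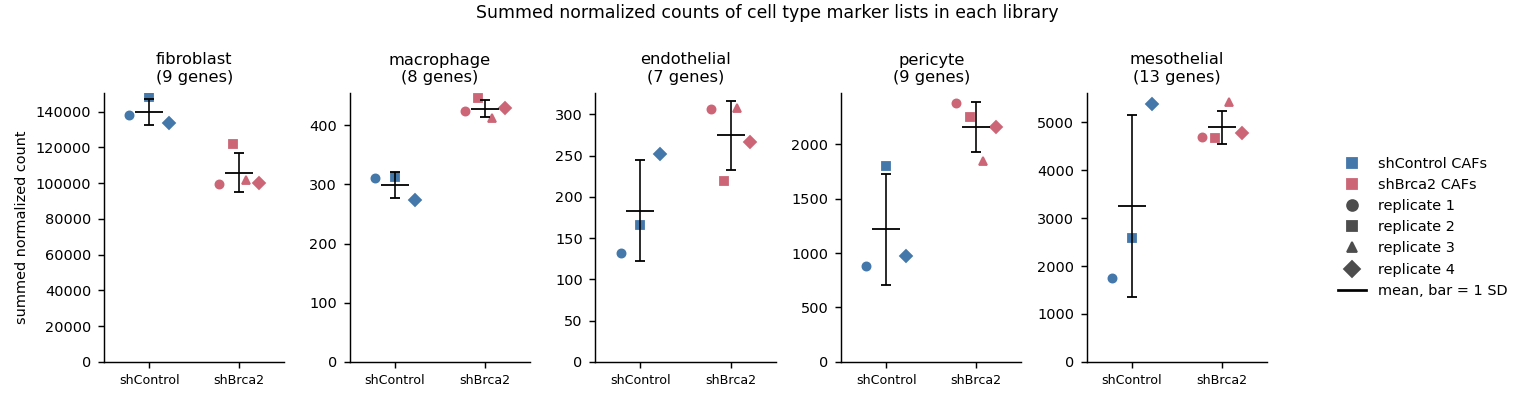
Summed normalized counts of 5 cell type marker lists (vertical axes, each from 0) in the 3 shControl and 4 shBrca2 libraries, with a line at the group mean and bars of 1 SD. Fibroblast sums were lower and macrophage and pericyte sums higher in all 4 shBrca2 libraries, while the endothelial and mesothelial sums overlapped.

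Among the TGFβ ligands, Tgfb1 rose, and Tgfb2 and Tgfb3 did not pass. Tgfb1 (chr7:25687002-25705077, mouse build GRCm38.p6, as all positions here) encodes the ligand most studied in fibroblasts. Its normalized counts in shControl replicates 1, 2 and 4 were 143, 426 and 135, and in shBrca2 replicates 1 to 4 they were 466, 454, 356 and 698. The groups overlapped because shControl replicate 2 lay with the shBrca2 libraries, above shBrca2 replicate 3. Means were 235 ± 166 (SD, n = 3) and 493 ± 145 (SD, n = 4), a log2 fold change of 1.08 ± 0.37 (SE, DESeq2 adjusted p = 0.0621). Without shControl replicate 2 the log2 fold change was 1.83 (DESeq2 adjusted p = 4.0e-08). Values in brackets after a left-out library are log2 fold changes. The call was lost without shControl replicate 1 (0.82) or 4 (0.80), without shBrca2 replicate 2 (1.11) or 4 (0.87), and with edgeR (1.09), and the adjusted p ran from 4.0e-08 to 0.4 over 13 alternative fits (edgeR, other settings of DESeq2, the replicate number as a block, and each library left out in turn).

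Tgfb3 had 482 to 562 normalized counts in shControl and 495 to 629 in shBrca2. Its log2 fold change was 0.08, with a 95% interval from -0.23 to 0.39. For Tgfb2 the ranges were 154 to 271 and 190 to 346, with a log2 fold change of 0.45 and an interval from -0.07 to 0.96. Within a library, the ratio of Tgfb1 to Tgfb3 counts does not depend on scaling to depth. It was 0.254, 0.873 and 0.28 in the shControl libraries and 0.873, 0.918, 0.705 and 1.11 in the shBrca2 libraries, so that shControl replicate 2 again fell among the shBrca2 values. Macrophages also make TGFβ1, and the macrophage marker sum, mostly through Csf1r, was higher in all 4 shBrca2 libraries. Its part in the Tgfb1 values was not tested.

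The activin subunits moved in opposite directions. Inhba (chr13:16004256-16031609), which encodes the βA subunit that forms activin A, had the largest increase of all members. It had 10.25, 24.0 and 7.78 normalized counts in shControl and 98.1, 72.9, 44.9 and 38.6 in shBrca2 libraries, from raw counts of 8 to 125. Every shBrca2 library was above every shControl library. Its mean rose from 14.0 ± 8.76 (SD, n = 3) to 63.6 ± 27.4 (SD, n = 4), a 4.72-fold difference with a log2 fold change of 2.24 ± 0.45 (SE, DESeq2 adjusted p = 1.15e-04). Inhbb (chr1:119415463-119422248), which encodes the βB subunit of activin B, fell. Its counts were 90.5, 116 and 257 in shControl and 60.2, 58.3, 74.3 and 73.2 in shBrca2 libraries. The shBrca2 libraries lay close together below all controls, which were themselves far apart. The log2 fold change was -1.23 ± 0.34 (SE, DESeq2 adjusted p = 0.00787). Without shControl replicate 4, the highest library, it was -0.65 and was not called (DESeq2 adjusted p = 0.24, the highest of the 13 alternatives, which began at 2.70e-04).

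The ratio of Inhba to Inhbb counts within a library was 0.113, 0.207 and 0.0303 in shControl and 1.63, 1.25, 0.605 and 0.528 in shBrca2, with no overlap. Fst encodes follistatin, the secreted inhibitor of activins. It had 130 to 226 normalized counts in shControl and 135 to 349 in shBrca2, a log2 fold change of 0.57 that did not pass (DESeq2 adjusted p = 0.346), although it was called without shBrca2 replicate 3 (0.77, with adjusted p from 0.055 to 0.74 over the alternatives). The ratio of Inhba to Fst was 0.0455, 0.152 and 0.0597 in shControl and 0.324, 0.209, 0.333 and 0.174 in shBrca2. It was therefore higher in each shBrca2 library than in any control, and nearest between shControl replicate 2 and shBrca2 replicate 4.

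Of the 5 BMP ligands, Bmp6 alone was called, and it fell. Bmp6 (chr13:38345716-38500314) encodes a ligand known for inducing hepcidin in the liver. Its normalized counts were 63.2, 24.0 and 42.8 in shControl and 12.0, 21.6, 15.5 and 22.4 in shBrca2 libraries. The groups did not overlap, although shControl replicate 2 was just above shBrca2 replicate 4. Expression fell by 1.28 ± 0.41 on the log2 scale (SE, DESeq2 adjusted p = 0.0269). It was not called without shControl replicate 1 (-0.90) or shBrca2 replicate 1 (-1.12), and the adjusted p ran from 0.0031 to 0.42. Bmp2 and Bmp4 had log2 fold changes of 0.21 each, with intervals from -0.73 to 1.16 and from -0.53 to 0.96. Bmp4 had between 19.8 and 44.7 normalized counts in any library, and the width of these intervals limits what could be detected.

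Gdf15 and Gdf9 fell among the 4 GDF ligands, and Gdf6 and Gdf10 did not pass. Gdf15 (chr8:70629393-70632470) encodes a distant member of the superfamily that is induced by cellular stress and acts through the receptor GFRAL in the hindbrain. It had 73.5, 70.8 and 75.9 normalized counts in shControl and 21.5, 33.2, 22.5 and 24.4 in shBrca2 libraries. Both groups were tight and far apart. The log2 fold change was -1.50 ± 0.28 (SE, DESeq2 adjusted p = 1.13e-05), a 2.83-fold decrease, and the call held in each of the 13 alternative fits. Of its 2263 exon bases, 391 overlap a gene on the opposite strand. Gdf9 (chr11:53430774-53437904), best known as an oocyte ligand, had 33.3, 36.7 and 35.0 in shControl and 8.61, 22.7, 20.7 and 13.2 in shBrca2 libraries. Its log2 fold change was -1.10 ± 0.39 (SE, DESeq2 adjusted p = 0.0596). The call was lost without any of shControl replicates 1, 2 and 4 or shBrca2 replicates 1 and 4, with values from -1.14 to -0.88 and adjusted p up to 0.34. Gdf6, the member with the highest mean count of this role, had 171 to 219 in shControl and 128 to 196 in shBrca2 (log2 fold change -0.35, interval -0.78 to 0.07). Gdf10, at -1.89, did not pass (DESeq2 adjusted p = 0.144) at 1.02 to 13.7 normalized counts.

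**Figure D3:**
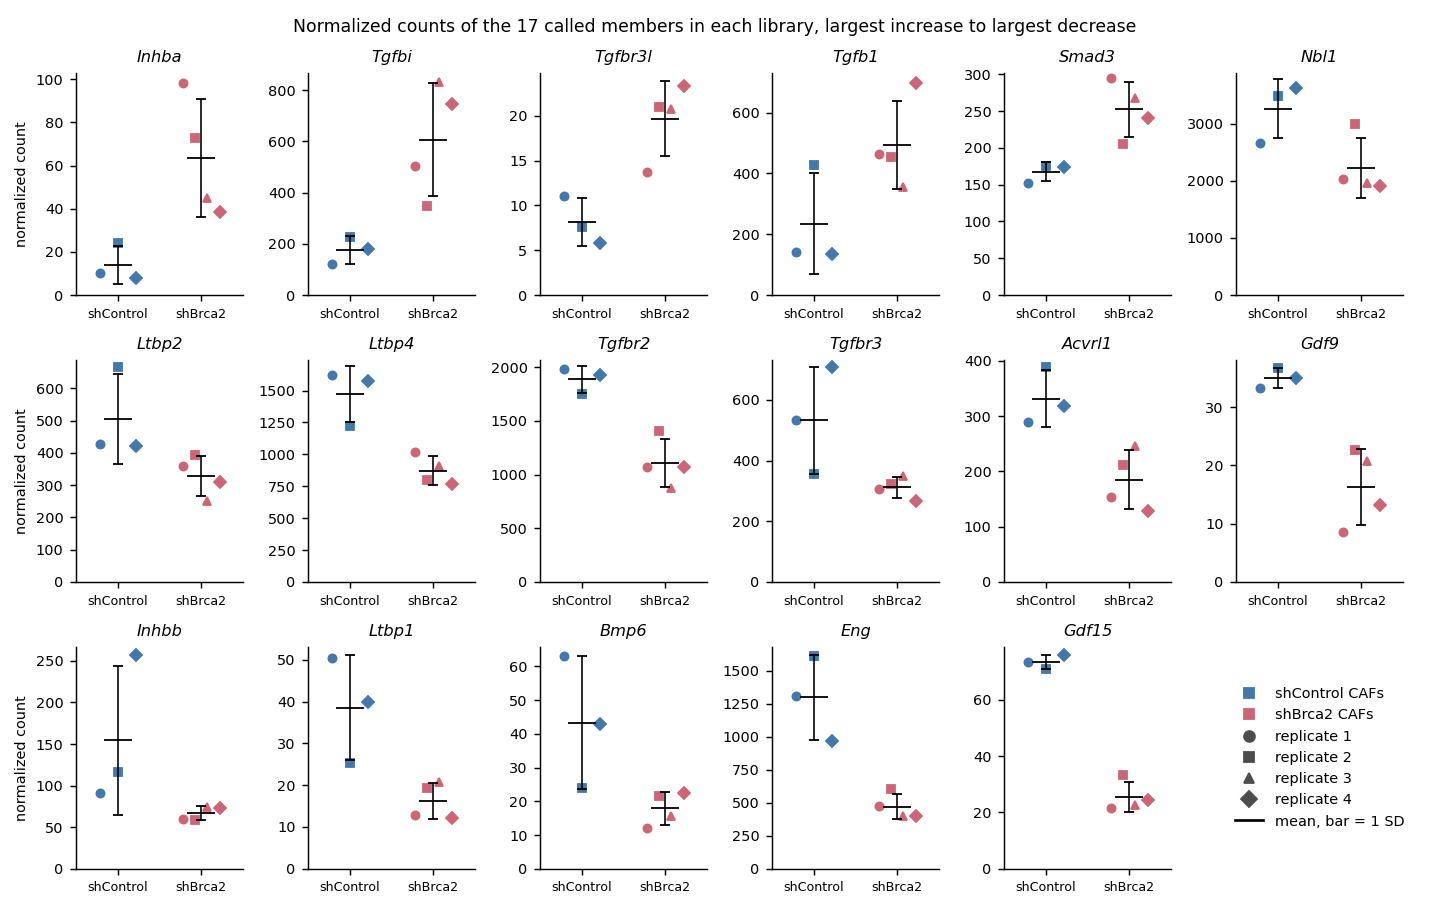
Normalized counts (vertical axes, each from 0) of the 17 called members in every library, ordered from the largest increase to the largest decrease. Marker shapes give the replicate number, lines the group means and bars 1 SD. The groups overlap in Tgfb1, where shControl replicate 2 stands at 426, and in Nbl1, where shBrca2 replicate 2 stands at 2999.5.

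Among the TGFβ receptor genes, Tgfbr2 and the co-receptor genes Eng and Tgfbr3 fell and Tgfbr3l rose, while the type I receptor gene Tgfbr1 did not pass. Tgfbr2 (chr9:116087695-116175363) encodes the type II receptor that binds TGFβ first. It had 1981, 1747 and 1933 normalized counts in shControl and 1075, 1406, 874 and 1071 in shBrca2 libraries. All shBrca2 libraries were below all controls, with replicate 2 the nearest. Expression fell by 0.77 ± 0.18 on the log2 scale (SE, DESeq2 adjusted p = 0.00119), a 1.7-fold decrease, and the call held in all 13 alternative fits. Tgfbr1, its type I partner, had 504 to 687 in shControl and 408 to 560 in shBrca2, with a log2 fold change of -0.13 and an interval from -0.50 to 0.24. The ratio of Tgfbr2 to Tgfbr1 was 3.91, 2.54 and 3.84 in shControl and 2.00, 2.56, 2.14 and 1.91 in shBrca2, so shControl replicate 2 and shBrca2 replicate 2 had nearly the same ratio.

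Eng, Tgfbr3 and Acvrl1 fell together. Eng (chr2:32646595-32682669) encodes endoglin, a co-receptor for TGFβ and BMP9 that is abundant in endothelial cells and also present in fibroblasts. Its normalized counts were 1309, 1613 and 972 in shControl and 473, 602, 401 and 404 in shBrca2 libraries. The lowest control was well above the highest shBrca2 library. The log2 fold change was -1.46 ± 0.22 (SE, DESeq2 adjusted p = 2.22e-08), a 2.75-fold decrease, and the adjusted p stayed at 0.0033 or less over the 13 alternative fits. In the annotation 860 of its 7798 exon bases overlap Fpgs on the opposite strand. Acvrl1 (chr15:101128522-101145336) encodes ALK1, the type I receptor that works with endoglin. It had 289, 388 and 318 in shControl and 153, 212, 245 and 129 in shBrca2 libraries, again with no overlap. Its log2 fold change was -0.85 ± 0.24 (SE, DESeq2 adjusted p = 0.0109). Endothelial markers went both ways beside these genes, with Pecam1, Tek and Vwf lower in all 4 shBrca2 libraries and Flt1 and Erg higher, and the part of endothelial RNA in these decreases was not tested.

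Tgfbr3 (chr5:107106567-107289629) encodes betaglycan, which presents TGFβ2 to TGFBR2 and also binds inhibins. It had 533, 355 and 709 normalized counts in shControl and 306, 324, 349 and 267 in shBrca2 libraries. The groups were separated by a small gap between shControl replicate 2 and shBrca2 replicate 3. Expression fell by 0.78 ± 0.24 on the log2 scale (SE, DESeq2 adjusted p = 0.0183), and the call was lost without shControl replicate 4 (-0.52) or shBrca2 replicate 4 (-0.71). Over the alternatives the adjusted p ran from 4.70e-05 to 0.24. Tgfbr3l (chr8:4248214-4251423), a betaglycan-like gene, was the only receptor gene called higher, with 5.84 to 11.1 in shControl and 13.8 to 23.4 in shBrca2 libraries. Its log2 fold change of 1.25 (DESeq2 adjusted p = 0.0926) was not called when any single library was left out, with values from 1.04 to 1.56 and adjusted p up to 0.57 over the alternatives. In the annotation 1677 of its 2955 exon bases are shared with other genes, so its counts are uncertain. The remaining receptors Acvr1, Acvr1b, Bmpr1a, Bmpr2 and Acvr2a had log2 fold changes from -0.15 to 0.21 and were not called.

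Promoter sequence is shown for 2 members that rose and 2 that fell and whose calls held in all 13 alternative fits: Inhba, Tgfbi, Eng and Tgfbr2. Each is the 250 bases before an annotated transcript start of the gene (for Inhba, a start inside the span given above), from RefSeq on GRCm38.p6, written 5′ to 3′ on the strand of the gene, with capitals on 2 kinds of SMAD motif. These are the SMAD box (CAGAC, or GTCTG on the other strand) and the GC-rich SMAD site (GGCGCC), searched on both strands. The windows are chr13:16011601-16011850 (plus strand) for Inhba, chr13:56609336-56609585 (plus) for Tgfbi, chr2:32646345-32646594 (plus) for Eng and chr9:116175364-116175613 (minus) for Tgfbr2.
Inhba: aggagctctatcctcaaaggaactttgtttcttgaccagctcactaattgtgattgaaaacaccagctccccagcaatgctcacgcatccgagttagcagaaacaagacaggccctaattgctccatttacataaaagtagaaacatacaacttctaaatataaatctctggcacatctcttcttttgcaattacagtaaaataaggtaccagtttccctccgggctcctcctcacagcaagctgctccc
Tgfbi: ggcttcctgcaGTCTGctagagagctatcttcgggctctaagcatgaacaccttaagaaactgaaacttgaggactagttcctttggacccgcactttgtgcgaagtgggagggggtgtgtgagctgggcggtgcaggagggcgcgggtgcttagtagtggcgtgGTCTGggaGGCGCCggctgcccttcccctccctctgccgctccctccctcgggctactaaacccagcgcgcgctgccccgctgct
Eng: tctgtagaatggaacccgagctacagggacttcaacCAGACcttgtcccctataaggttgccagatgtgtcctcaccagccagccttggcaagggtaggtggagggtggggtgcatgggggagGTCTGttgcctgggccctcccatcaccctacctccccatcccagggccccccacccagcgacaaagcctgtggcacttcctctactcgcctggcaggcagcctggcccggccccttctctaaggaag
Tgfbr2: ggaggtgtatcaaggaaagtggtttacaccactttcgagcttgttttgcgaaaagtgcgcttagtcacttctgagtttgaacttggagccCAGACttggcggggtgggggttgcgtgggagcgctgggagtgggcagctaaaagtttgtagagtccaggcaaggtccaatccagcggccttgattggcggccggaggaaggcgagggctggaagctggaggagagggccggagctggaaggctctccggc
The Inhba window held neither motif, the Tgfbi window held 2 SMAD boxes and 1 GC-rich site, Eng held 2 SMAD boxes and Tgfbr2 held 1. Windows were found for 14 of the 17 called members, 18 windows in all because some genes have several starts. A SMAD box was in 9 of the 18 (50%), against 42.2% of 32851 windows of the same length over all genes. The GC-rich site was in 4 of the 18 (22.2%), in Ltbp4, Nbl1 and Tgfbi, against 9.59% of all windows. Over the windows of all members, called or not, it was in 13 of 44 (29.5%). The palindrome GTCTAGAC was in 0 of the 18 and in 0.167% of all windows. The AP-1 site TGANTCA was in 0 of the 18 and in 6.75% of all. The hypoxia response core ACGTG was in 3 (16.7%, all windows 16.6%) and the heat shock element core GAANNTTC in 3 (16.7%, all windows 6.69%). Over the 44 windows of all members, the AP-1 site was in 0, the hypoxia core in 9 (20.5%) and the heat shock core in 4 (9.09%). None of these motifs lies within another. A match is only a match of letters and was not tied to binding.

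Of the 4 latent TGFβ binding proteins, Ltbp1, Ltbp2 and Ltbp4 fell in shBrca2 CAFs and Ltbp3 did not pass. These proteins tether the latent complex to the matrix, except LTBP2, which does not bind TGFβ and sits on fibrillin. Ltbp4 (chr7:27305140-27339720) had 1622, 1221 and 1575 normalized counts in shControl and 1017, 802, 907 and 766 in shBrca2 libraries. No shBrca2 library reached the lowest control. The log2 fold change was -0.76 ± 0.17 (SE, DESeq2 adjusted p = 6.58e-04), and the call held in all 13 alternative fits. In the annotation 1301 of its 7538 exon bases overlap genes on the opposite strand.

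Ltbp1 (chr17:75005480-75392512), the main binding protein of latent TGFβ1, had low counts. They were 50.4, 25.3 and 39.9 in shControl and 12.9, 19.2, 20.7 and 12.2 in shBrca2 libraries, with shControl replicate 2 close to shBrca2 replicate 3. Expression fell by 1.27 ± 0.38 on the log2 scale (SE, DESeq2 adjusted p = 0.0172). The call was lost without shControl replicate 1 (-1.03) or 4 (-1.25) and without shBrca2 replicate 1 (-1.17) or 4 (-1.16), with adjusted p from 0.0065 to 0.28. Ltbp2 (chr12:84783212-84876558) had 426, 667 and 422 in shControl and 359, 393, 252 and 310 in shBrca2 libraries. The groups did not overlap, but the gap was small except for shControl replicate 2. Its log2 fold change was -0.61 ± 0.23 (SE, DESeq2 adjusted p = 0.0811), and it was -0.36 and not called without shControl replicate 2. It was also not called without shBrca2 replicate 1 (-0.66), 3 (-0.51) or 4 (-0.58) or with edgeR (-0.61), with adjusted p from 0.047 to 0.43, and 764 of its 8184 exon bases overlap a gene on the opposite strand. Ltbp3 had 1086 to 1431 and 944 to 1211, with a log2 fold change of -0.25 and an interval from -0.56 to 0.07. The fibroblast marker sum was lower in the same libraries, with 5 of its 9 markers not called, and its part in these decreases was not tested.

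Among the SMADs, which carry the signal to the nucleus, Smad3 rose and no other passed. Smad3 (chr9:63646766-63757994), a mediator of TGFβ and activin signals, had 153, 176 and 174 normalized counts in shControl and 294, 206, 268 and 241 in shBrca2 libraries. All shBrca2 libraries were above the controls, replicate 2 by the least. The log2 fold change was 0.59 ± 0.19 (SE, DESeq2 adjusted p = 0.0385), a 1.5-fold increase. The call was lost without shControl replicate 1 (0.52) or 4 (0.62) and without shBrca2 replicate 1 (0.50), 3 (0.56) or 4 (0.61), with adjusted p from 0.026 to 0.44. Smad2, its close relative, had 11.4 to 26.4 normalized counts over the 7 libraries and a log2 fold change of 0.22 with an interval from -0.57 to 1.01.

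Smad1, a mediator of BMP signals, was just short of the threshold. It had 59.8, 89.8 and 49.6 in shControl and 154, 107, 70.8 and 117 in shBrca2 libraries, a log2 fold change of 0.78 ± 0.30 (SE, DESeq2 adjusted p = 0.106). It was called in 4 of the 13 alternative fits, among them without shControl replicate 2 (1.05) and without shBrca2 replicate 3 (0.93), with adjusted p from 0.023 to 0.47. Smad5 and Smad4 had log2 fold changes of 0.08 and -0.14. Smad9 had 1.27 to 5.84 in shControl and 0 to 0.861 in shBrca2, too few counts to be called. The inhibitory Smad6 and Smad7 had log2 fold changes of -0.06 and -0.07, with intervals from -0.49 to 0.38 and from -0.49 to 0.34. The ratio of Smad3 to Smad7 was 0.339, 0.361 and 0.315 in shControl and 0.715, 0.399, 0.438 and 0.677 in shBrca2 libraries, with no overlap.

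Of the 9 antagonists, 1 was called. Nbl1 (chr4:139082291-139093126), which encodes the BMP antagonist DAN, had 2668, 3483 and 3630 normalized counts in shControl and 2028, 2999.5, 1958 and 1906 in shBrca2 libraries. The groups overlapped because shBrca2 replicate 2 lay above shControl replicate 1. Its log2 fold change was -0.55 ± 0.21 (SE, DESeq2 adjusted p = 0.0849). The call was lost without shControl replicate 2 (-0.50) or 4 (-0.47), without shBrca2 replicate 1 (-0.51), 3 (-0.50) or 4 (-0.48) and with edgeR (-0.56), with adjusted p from 0.0017 to 0.34. Fstl1, a follistatin-like glycoprotein and the antagonist with the highest mean count, had 13375, 11904 and 12002 in shControl and 10332, 10682, 9129 and 8558 in shBrca2 libraries. Its groups did not overlap and its adjusted p was under 0.1 (DESeq2 adjusted p = 0.0989), but its log2 fold change of -0.36 was short of 0.5.

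Grem1, a BMP antagonist and a marker of some fibroblast subsets, had 20.5, 27.8 and 2.92 normalized counts in shControl and 20.7, 10.5, 19.0 and 21.3 in shBrca2 libraries. shControl replicate 4 was far below all others. The log2 fold change was 0.06 ± 0.57 (SE), with an interval from -1.06 to 1.19, and its sign depended on single libraries, with values from -0.45 without shControl replicate 4 to 0.57. Bmper, Fstl3, Chrd and Nog had log2 fold changes from -0.43 to 0.22 and were not called. Fstl3, an inhibitor of activins, was called without shControl replicate 2 (0.51, adjusted p from 0.052 to 0.95 over the alternatives).

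Tgfbi, named for its induction by TGFβ, encodes a secreted matrix protein that binds collagens and integrins and is not itself a ligand. Tgfbi (chr13:56609586-56639359) had 120, 228 and 180 normalized counts in shControl and 503, 349, 831 and 746 in shBrca2 libraries. All shBrca2 libraries were above all controls, and shBrca2 replicate 2 was the nearest to them. Its mean rose from 176 ± 53.7 (SD, n = 3) to 607 ± 221 (SD, n = 4), a 3.45-fold difference with a log2 fold change of 1.79 ± 0.31 (SE, DESeq2 adjusted p = 6.86e-06). The adjusted p stayed at 0.0073 or less over the 13 alternative fits. Macrophages also express Tgfbi, and the macrophage marker sum was higher in the same 4 libraries (413 to 446 against 273 to 312). That difference was mostly in Csf1r, and the part of macrophage RNA in the Tgfbi values was not tested. The other members matched by name alone were not called, with log2 fold changes of 0.03 for Bmp1, the protease that removes the propeptide of collagens, and from -1.04 to -0.17 for Bmp2k, Tgfbrap1 and Tgfb1i1.

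Across the 17 called members, 7 were called in all 13 alternative fits: Acvrl1, Eng, Gdf15, Inhba, Ltbp4, Tgfbi and Tgfbr2. The number called fell to 9 without shControl replicate 4 or without shBrca2 replicate 4, to 10 without shBrca2 replicate 1 and to 11 without shControl replicate 1. With the replicate number as a block 9 were called, and Bmp6, Gdf9, Ltbp1, Ltbp2, Nbl1, Smad3, Tgfbr3 and Tgfbr3l lost their calls. Of the 4 shBrca2 libraries, replicate 2 was the nearest to the control mean in 8 of the 17, and of the 3 controls, replicate 2 was the nearest to the shBrca2 mean in 10.

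**Figure D4:**
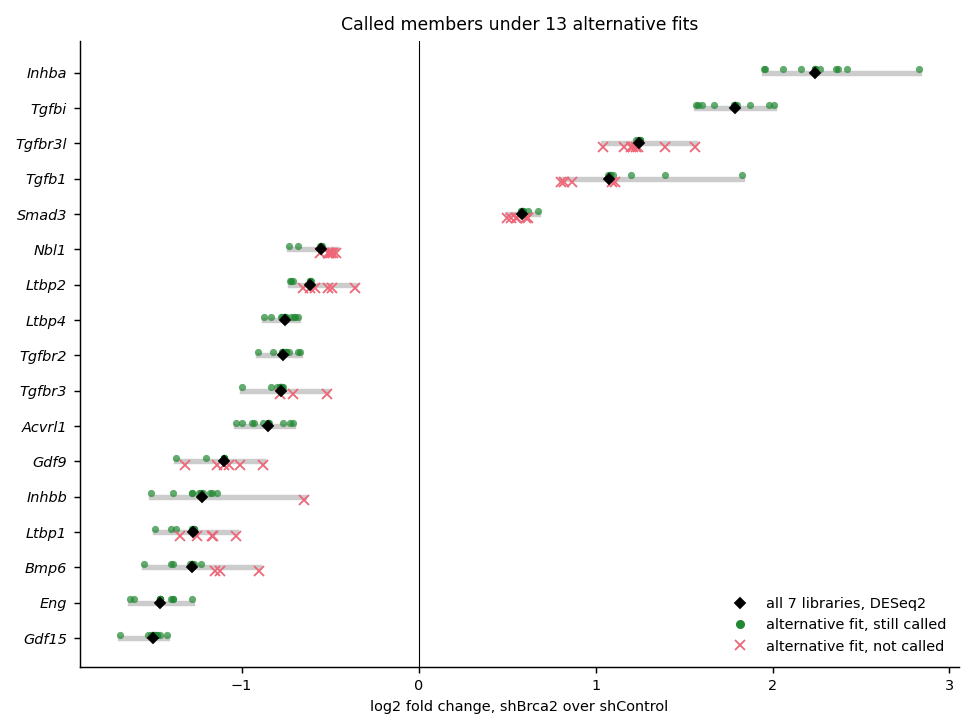
Log2 fold changes (horizontal axis, shBrca2 over shControl) of the 17 called members with all 7 libraries (black diamonds) and under 13 alternative fits, drawn as green points where the gene was still called and as red crosses where it was not. The grey bar spans the alternatives. Every value kept its direction, and the 7 members named above have no crosses.

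Other genes of the pathway were then read from lists of targets and regulators, chosen with earlier results of these data known. Of 25 genes known to be induced through SMAD2 and SMAD3, DESeq2 called 3 higher and 0 lower: Tgfbi, Bhlhe40 and Acta2. edgeR also called 3 higher and 0 lower, and at an unadjusted p under 0.05 the numbers were 5 and 3. That share of 12% was near the 9.04% of all genes, and without the members Tgfbi and Smad7 the median log2 fold change of the other 23 was 0.08. Bhlhe40, a transcriptional repressor, had 608 to 716 normalized counts in shControl and 793 to 1182 in shBrca2 (log2 fold change 0.61, standard error 0.17, DESeq2 adjusted p = 0.012). It was not called without shControl replicate 1 (0.59). Acta2, the smooth muscle actin of myofibroblasts, had 23.3 to 57.2 and 69.1 to 110 (log2 fold change 1.07, standard error 0.32, DESeq2 adjusted p = 0.018), and was not called without shControl replicate 4 (0.76) or shBrca2 replicate 4 (0.99). Direct SMAD3 targets with no call included Skil and Ccn2, at log2 fold changes of 0.36 and -0.14.

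Of 11 measured BMP targets, 1 was called higher and 1 lower, a share of 18.2% against 9.04% of all genes. Hey1, a repressor that BMP9 and Notch both induce, had 15.4, 13.9 and 18.5 normalized counts in shControl and 45.6, 37.3, 41.5 and 42.7 in shBrca2 libraries. The groups were far apart, with a log2 fold change of 1.38 ± 0.34 (SE, DESeq2 adjusted p = 0.0016). With the replicate number as a block, Hey1 was not called (1.4, DESeq2 adjusted p = 0.13). Id2, an inhibitor of helix-loop-helix factors, had 491, 225 and 513 in shControl and 184, 201, 133 and 181 in shBrca2 libraries, a log2 fold change of -1.23 ± 0.28 (SE, DESeq2 adjusted p = 6.6e-04). Id1 and Id3, which respond most directly to BMPs, were not called (log2 fold changes 0.09 and -0.34).

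Of 21 measured genes that hold or release latent TGFβ, DESeq2 called 5 lower and 0 higher, a share of 23.8% against 9.04% of all genes. The list's median was -0.28 on the log2 scale. edgeR called 4 lower and 0 higher, and at an unadjusted p under 0.05 the numbers were 8 and 1. Fbn1, the fibrillin to which latent complexes bind, had 6048, 5713 and 5805 normalized counts in shControl and 2908, 3396, 2710 and 2486 in shBrca2 libraries. That is a log2 fold change of -1.03 ± 0.15 (SE, DESeq2 adjusted p = 3.85e-09), which was called in all 13 alternative fits. Lrrc32 and Nrros encode the cell-surface anchors of latent TGFβ, and their log2 fold changes were -0.92 and -2.06 (DESeq2 adjusted p = 0.006 and 0.037). Lrrc32 was called in all 13 alternatives, whereas Nrros, at 0.861 to 26.5 normalized counts, was not called without shControl replicate 1 (-1.40) or shBrca2 replicate 1 (-1.71). The small proteoglycans Dcn and Fmod, which bind TGFβ in the matrix, had log2 fold changes of -0.77 and -0.72. The Dcn groups overlapped, and its call was lost without shControl replicate 1 (-0.63) or 4 (-0.56) and without shBrca2 replicate 1 (-0.69) or 4 (-0.68). The Dcn call was also lost with edgeR (-0.77) and with the replicate number as a block (-0.815). Fmod was not called without shBrca2 replicate 1 (-0.62) or 4 (-0.65). Dcn is also 1 of the 9 fibroblast markers given above, whose sum fell in the same libraries.

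Of 11 further antagonists and co-receptors, 2 were called higher and 2 lower (36.4%, against 9.04% of all genes). Cd109, a co-receptor that limits TGFβ signaling, had 9.4 to 36 normalized counts in shControl and 46 to 76.6 in shBrca2 libraries, 1.36 higher on the log2 scale (DESeq2 adjusted p = 0.015). It was not called without shControl replicate 1 (0.95). Scube3, a secreted ligand of TGFβ receptors, had 0 to 5.84 and 12.9 to 24.2 (log2 fold change 2.18, DESeq2 adjusted p = 0.022), and was not called without shControl replicate 1 (1.51) or shBrca2 replicate 3 (1.94). The BMP antagonist Chrdl2 and the BMP co-receptor Rgma were at -0.87 and -0.79 on that scale (DESeq2 adjusted p = 0.025 and 0.0032). Chrdl2 was not called without shControl replicate 1 (-0.82) or shBrca2 replicate 1 (-0.74). With the replicate number as a block, Chrdl2 (-0.81), Rgma (-0.88) and Cd109 (1.5) were not called. Of 18 intracellular regulators of the pathway, 0 were called by DESeq2 or edgeR, which called 9.04% and 8.75% of all genes. Among them were the ubiquitin ligases Smurf1 and Smurf2 and the corepressors Ski and Skil. Ski and Tgif1 were the 2 with an unadjusted p under 0.05, and the median log2 fold change of the list was 0.15.

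**Figure D5:**
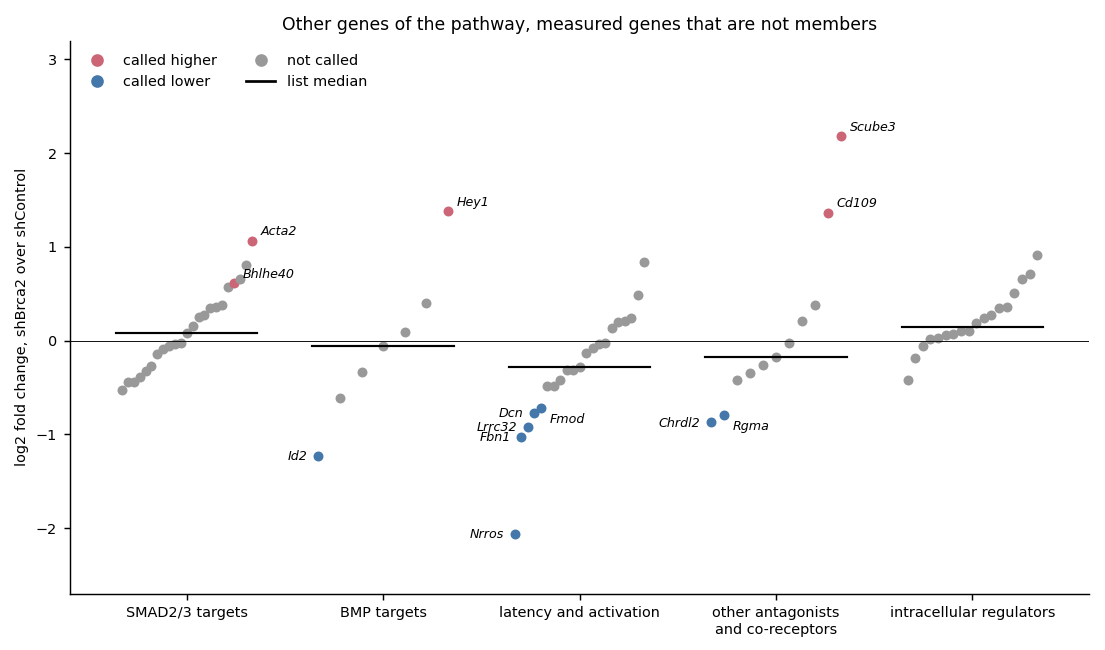
Log2 fold change (vertical axis, shBrca2 over shControl) of each measured gene of 5 pathway lists that is not a member, sorted within its list, with a line at the list median. Called genes are named and colored. The latency and activation list has called genes on the lower side alone, and the intracellular regulators have none.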

How the data were processed

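The authors deposited raw counts per gene symbol, whole numbers with no normalization, in 1 table with a column per library (3 shControl and 4 shBrca2). The submitters' processing notes name bcl2fastq, cutadapt, STAR 2.4.2a, HTSeq, DESeq2 and the build mm10. Strand handling and collapsing of molecular barcodes are not given in the sources used here, so counts may include PCR copies, and reads of overlapping or antisense genes cannot be told apart. Groups followed the Brca2 status in the labels. No 2 libraries of a group agreed within sampling noise, which PCR copies can also bring about. P-values rest on the spread between libraries, each from 1 mouse. The labels give no separate hairpins or infections within a group, so spread between those was not measured.

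DESeq2 1.42.0 (R 4.3.3) was run on all 12771 genes with its default size factors (median of ratios), comparing models with and without the group by likelihood ratio as in the study's methods, and with no covariate. P-values were adjusted by the Benjamini-Hochberg method over the 12768 genes that received one. A gene was called at an adjusted p under 0.1, an absolute log2 fold change over 0.5 and a mean normalized count over 5. Fold changes were not shrunken, and their 95% intervals are the estimate plus or minus 1.96 standard errors. The alternatives were edgeR 4.0.16 (quasi-likelihood test with TMM factors), the Wald test, TMM size factors in DESeq2, a filter of 10 counts in 3 libraries, no independent filtering, the replicate number as a block, each library left out in turn, and an adjusted p under 0.05. The code was tested on simulated counts.

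The members, marker genes and gene lists were chosen with earlier results of these data known. The rule named every called member, Ltbp1, Ltbp2, Tgfbi, Tgfb1 and Grem1, the member with the highest mean count of each role, and the called genes of each pathway list. All other genes given by name, Smad1, Smad5, Tgfb2, Fst, Fstl3, Bmp4, Skil, Ccn2, Id1 and Id3 among them, were named after their values were seen. Counts come from the 3' end, so levels of different genes are not compared. Positions and promoters were taken by symbol from RefSeq tables on GRCm38.p6 (all 51 members had a position and 36 had a promoter window), and exon overlaps from GENCODE vM39. Listed genes outside the count table were not analysed here, and 1 member, counted in all totals, and 1 listed target are not reported here by name.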

Additional observations from a re-analysis of the deposited data

Results flagged for a closer look

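Within the 4 shBrca2 libraries, a single library stood apart from the other 3 in 4 of 48 named genes, by Dixon's test at the 95% level. Chance alone passes that test in about 1 of 20 groups, and shControl, with 3 libraries, was not tested. Nbl1 was highest in shBrca2 replicate 2, at 2999.5 normalized counts. The type I receptor gene Tgfbr1 was lowest in shBrca2 replicate 3, at 408, and so was Ccn2, at 294. Scube3 was highest in shBrca2 replicate 3, at 24.2. Replicate 3 had the lowest total count of the 7 libraries, 1898679, and its part in these values was not tested.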

How the results depend on the processing

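The 17 calls among members became 15 with edgeR (14 of them among the 17), 18 with the Wald test, 17 with TMM size factors, 18 with the count filter, 17 with no filtering and 12 at an adjusted p under 0.05. Every one of the 17 kept its direction in all 13 alternative fits. With the replicate number as a block, 9 members and 491 genes were called, against 17 and 1154. Same-numbered samples did not deviate together (correlations of -0.091, -0.127 and -0.14 over 9062 genes). Differently numbered ones had correlations from -0.148 to 0.256. So few pairs cannot settle whether same-numbered samples were paired or shared a batch. Leaving out 1 library gave 9 to 15 members and 615 to 1305 genes. The cause of these shifts was not tested. Members fell to 9 without shControl replicate 4 or shBrca2 replicate 4, to 10 without shBrca2 replicate 1 and to 11 without shControl replicate 1. Over all genes, the calls fell to 615 without shBrca2 replicate 1, to 630 when the first control was left out and to 662 without shBrca2 replicate 4.

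The values that changed sign belonged to genes that were not called. They were Ccn2 (0.118 with the block, -0.254 to 0.0999 when 1 library was left out, positive without shControl replicate 1 at 0.032 or shBrca2 replicate 3), Tgfbr1 (-0.211 to 0.0268, positive without shControl replicate 2), Grem1 (-0.451 to 0.573, negative without shControl replicate 4, or shBrca2 replicate 1 or 4), Smad7 (-0.216 to 0.0419, positive without shControl replicate 4 or shBrca2 replicate 4), Bmp4 (-0.0367 to 0.391) and Id1 (-0.0539 to 0.244), both negative without shBrca2 replicate 4. Low counts limited Bmp5, Bmp7, Smad9, Gdf10, Acvr2a and Nog, whose mean normalized counts were under 10.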
